A study of Mus musculus with 16 samples.

Results

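G108, a long-acting agonist of the glucagon receptor, was compared with vehicle in the livers of obese mice on a high-fat, high-protein diet (HP). The comparison used 8 of the 16 libraries of the series, from 4 G108 HP mice and 4 vehicle HP mice with 1 library per mouse, and every gene with a mean of at least 1 TPM (a read count per exon length, scaled to the same total in each library) over all 16 libraries, which were 11839 of 55487 gene identifiers. All the mice were C57BL6/J males. According to the sample records they were lean and 10 weeks old when a high-fat diet of 60 kcal% was begun, and after 8 weeks on it they were housed singly and placed on a high-fat diet with high or standard protein. G108 at 2.5 nmol/kg, or vehicle, was injected under the skin on each of 22 mornings, and the liver was taken on day 25 after 4 h without food. The written methods of the study give a younger age and an earlier last day than these records. Both groups compared here were therefore obese, on a high-fat diet and enriched in protein alike, and differed in the agonist. The other 8 libraries, vehicle and G108 on the standard protein diet (SP), entered the model to estimate the spread and the difference between diets. Only 1 sex, 1 dose and 1 time were sampled, and in whole liver a smaller number of cells of a type and less RNA per cell cannot be told apart.

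Glucagon binds a receptor on hepatocytes that couples through a stimulatory G protein to adenylyl cyclase. The cyclic AMP made there activates protein kinase A, which phosphorylates CREB, a transcription factor that binds the cyclic AMP response element, and lets its coactivators enter the nucleus. In liver this pathway is known for turning on gluconeogenesis, amino acid uptake and breakdown and the urea cycle, and for lowering lipid synthesis.

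Promoters of the genes with the largest rises and of the CREB targets that rose are shown first, because the response element is a short sequence that can be looked for directly. Of 14 such genes, 8 had a promoter sequence from RefSeq (build GRCm38.p6), each from 250 bases before to 50 bases after a start, with 9 starts in all. The full element TGACGTCA was in 0 of the 9 starts and in 1.79% of 32851 promoters of the same length. Its core TGACG, searched on both strands and contained 2 times in the full element, was in 4 of the 9 starts, belonging to 3 genes, and in 20.8% of all promoters. The 4 windows with a core are printed below in lower case, 5′ to 3′ along the gene, with the core in capitals (CGTCA is the core on the other strand). They belong to Kiss1 (chr1:133326962-133327261, plus strand), 2 starts of Per1 (chr11:69098699-69098998, plus strand, and chr11:69099902-69100201, plus strand) and Ppargc1a (chr5:51567676-51567975, minus strand). Windows of Tat, Fads3, Tuba8, Gm28857 and Gm35696 held neither sequence.
Kiss1: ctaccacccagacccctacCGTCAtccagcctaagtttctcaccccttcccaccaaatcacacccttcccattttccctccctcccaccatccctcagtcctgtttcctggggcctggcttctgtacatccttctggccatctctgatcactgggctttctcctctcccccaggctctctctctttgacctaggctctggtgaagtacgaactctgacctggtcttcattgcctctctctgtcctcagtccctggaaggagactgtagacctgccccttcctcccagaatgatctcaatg
Per1, first start: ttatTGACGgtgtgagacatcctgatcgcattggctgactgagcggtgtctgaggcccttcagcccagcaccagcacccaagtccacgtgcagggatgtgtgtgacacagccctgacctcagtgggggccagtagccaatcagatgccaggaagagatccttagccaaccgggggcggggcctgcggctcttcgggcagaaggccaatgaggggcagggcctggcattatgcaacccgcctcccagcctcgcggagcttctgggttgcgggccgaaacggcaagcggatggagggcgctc
Per1, second start: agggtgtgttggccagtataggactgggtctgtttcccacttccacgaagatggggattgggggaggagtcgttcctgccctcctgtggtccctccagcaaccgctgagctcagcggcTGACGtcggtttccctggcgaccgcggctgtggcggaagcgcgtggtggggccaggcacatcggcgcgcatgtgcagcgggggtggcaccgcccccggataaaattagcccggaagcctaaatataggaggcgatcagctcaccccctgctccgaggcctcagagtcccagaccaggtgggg
Ppargc1a: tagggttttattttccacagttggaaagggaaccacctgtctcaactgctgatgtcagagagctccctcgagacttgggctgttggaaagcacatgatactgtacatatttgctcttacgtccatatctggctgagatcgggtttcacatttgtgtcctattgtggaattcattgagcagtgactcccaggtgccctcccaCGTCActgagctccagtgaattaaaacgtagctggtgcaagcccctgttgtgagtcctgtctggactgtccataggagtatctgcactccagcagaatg
These matches are descriptions of letters in a window and no measure of binding.

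Counted reads, recovered from the TPM values, numbered 34487471 to 44135257 per vehicle HP library and 30452127 to 36524777 per G108 HP library (genes in the annotation used for exon lengths). All 8 hepatocyte markers were abundant in every HP library, with a summed level of 25024 to 34642 TPM in vehicle HP and 22054 to 41236 TPM in G108 HP. Markers of T and B lymphocytes, neutrophils and monocytes, adipocytes, skeletal muscle and exocrine pancreas each summed to at most 6.79 TPM in any HP library, and no member of these 5 lists reached a mean of 1 TPM. Kupffer cell markers (78.2 to 113 TPM in vehicle HP and 53.4 to 112 TPM in G108 HP), sinusoidal endothelial, stellate, bile duct and erythroid markers gave 0 called genes out of 29 tested in limma, with 0 of 29 at an unadjusted p under 0.05 on either scale. Erythroid markers summed to 871 to 1389 TPM in vehicle HP and 1009 to 2003 TPM in G108 HP, with overlapping groups.

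Because every library is scaled to the same TPM total, a large change in a few abundant transcripts shifts all the others, and the groups differed in this respect. Major urinary protein (Mup) genes, which encode pheromone carriers secreted by male mouse liver, held 38.5, 35.7, 40.4 and 44.9% of TPM in vehicle HP mice 1 to 4 and 29.6, 26.4, 18.2 and 23.5% in G108 HP mice 1 to 4. The share fell from 39.9 ± 3.88% to 24.4 ± 4.85% (mean ± SD, n = 4 each), with no overlap (two-sided exact permutation p = 0.0286, the smallest that 4 against 4 can give). Genes of the mitochondrial genome, which encode subunits of the respiratory chain and the RNAs that translate them, held 20.7, 17.3, 17.8 and 15.2% in vehicle HP mice and 21, 27.4, 37.3 and 21% in G108 HP mice. Their share rose from 17.7 ± 2.29% to 26.7 ± 7.70% (exact permutation p = 0.0286), and G108 HP mouse 3 was the highest while G108 HP mice 1 and 4 lay just above vehicle HP mouse 1. Both shares are parts of the same total, so a fall in the Mup share by itself raises the mitochondrial share. The p-values of these shares are therefore not independent. Results are therefore given on TPM and as median-of-ratios values, in which a factor per library evens out the median gene. The factors ranged from 0.833 to 1.07 in vehicle HP and from 0.839 to 1.24 in G108 HP, highest in G108 HP mouse 4, and over all genes the median log2 fold change was 0.09 on TPM and -0.0036 on the median-of-ratios scale.

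**Figure D1:**
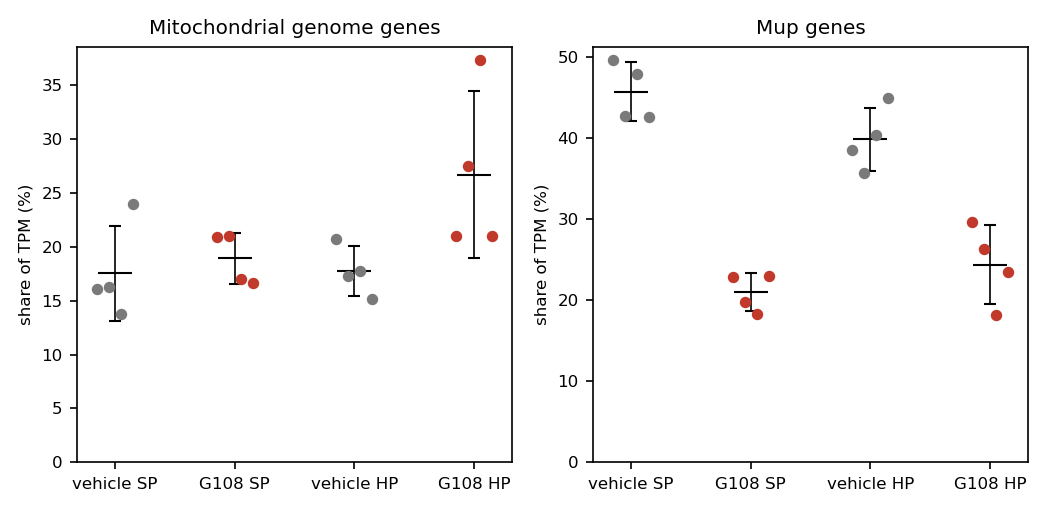
Share of all TPM (%, vertical axis) from mitochondrial genome genes (left) and Mup genes (right) in each mouse (points) of the 4 groups, with mean ± SD (bars, n = 4). On HP the Mup shares of the 4 G108 mice (18.2 to 29.6%) lie below those of the 4 vehicle mice (35.7 to 44.9%), and the mitochondrial share of G108 HP mouse 3 (37.3%) stands above the other 3.

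On the high-protein diet, G108 raised Kiss1, Sik1, Tat and Ppargc1a, known CREB targets, on both scales and lowered Rgs16, Cyp3a11, Arrdc3, Depp1 and several Mup genes. In limma on log2(TPM + 1), 132 of 11839 genes (1.11%) were called at an adjusted p under 0.05, 97 higher (0.819%) and 35 lower (0.296%) with G108. On the median-of-ratios scale 145 genes (1.22%) were called, 76 higher (0.642%) and 69 lower (0.583%), and without the mitochondrial and Mup genes in the total the split was 54 higher and 80 lower. Both scales called 90 genes, 59 higher and 31 lower and none in opposite directions. Of these 90, 66 were protein coding and 51 had an absolute log2 fold change of at least 1 on TPM (27 higher, 24 lower). Of the 42 called on TPM alone 38 were higher, and of the 55 called on the median-of-ratios scale alone 38 were lower. The groups did not overlap for 1051 genes (8.88%) on TPM and 965 genes (8.15%) on the median-of-ratios scale, among them 130 of the 132 and all 145 called genes. An unadjusted p under 0.05 was reached by 1410 of the 11839 genes on TPM and 1337 on the median-of-ratios scale. The counts at that level given below for gene lists are to be read beside these, and counts of called members beside the called shares above.

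These counts depended on single mice. Without vehicle HP mouse 4, limma called 0 genes on TPM, with a smallest adjusted p of 0.0517 and 834 genes at an unadjusted p under 0.05, and 9 higher and 9 lower on the median-of-ratios scale. Without vehicle HP mouse 3 the TPM counts were 5 higher and 2 lower, and without G108 HP mice 2, 3 and 4 they were 33, 24 and 21 higher and 17, 8 and 8 lower. On the median-of-ratios scale the counts were 15 and 9 without vehicle HP mouse 3, 8 and 9 without G108 HP mouse 3, 21 and 17 without G108 HP mouse 2, and 28 and 16 without G108 HP mouse 4. Array quality weights gave 1792 higher and 334 lower on TPM. The 90 genes called on both scales kept their direction and an unadjusted p under 0.05 with any 1 HP mouse left out, on both scales, a description of genes chosen on these same mice.

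**Figure D2:**
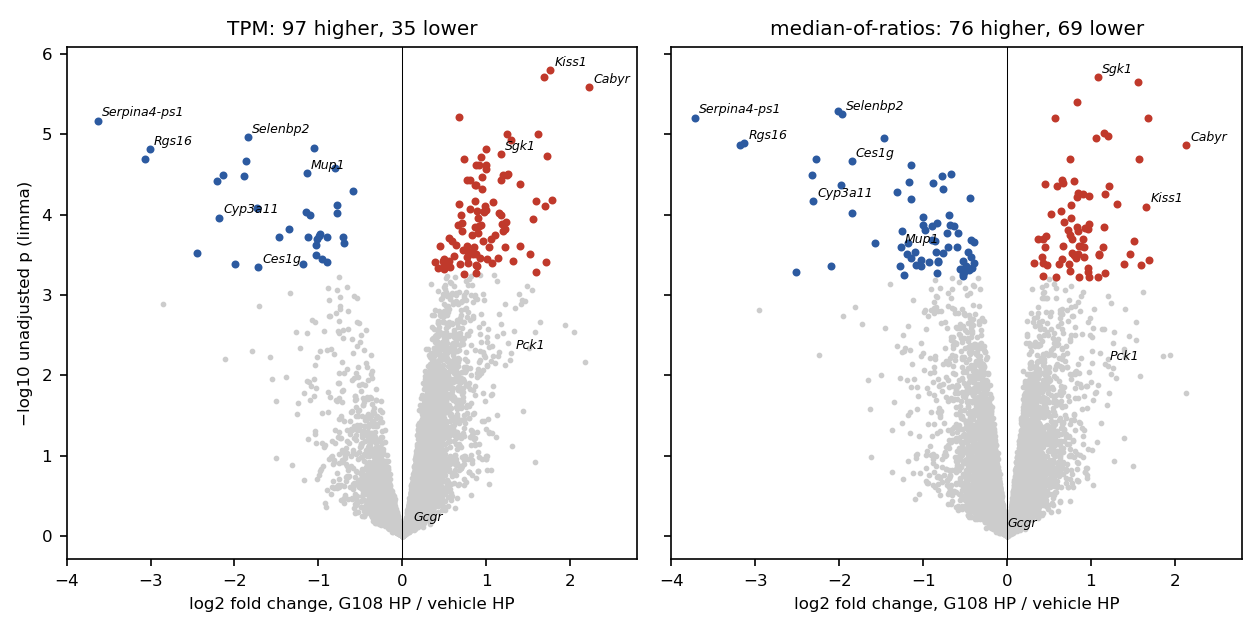
Log2 fold change of G108 HP over vehicle HP (horizontal axis) against -log10 of the unadjusted limma p (vertical axis) for 11839 genes on TPM (left) and median-of-ratios values (right). Red points are the genes called higher (97 and 76), blue points those called lower (35 and 69), and the grey cloud lies to the right of 0 on TPM only.

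**Figure D3:**
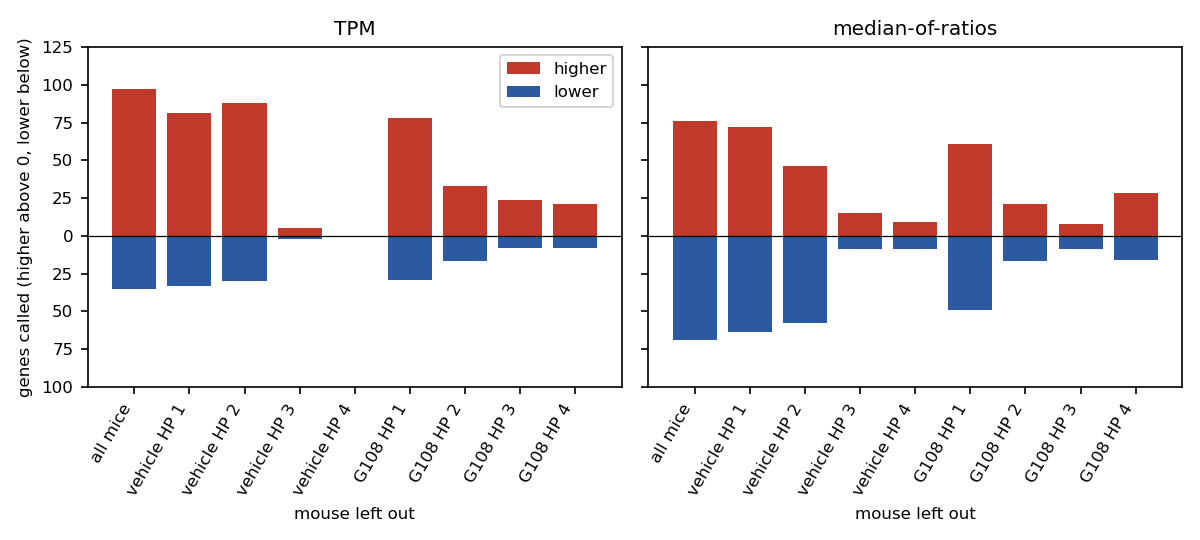
Number of genes called higher (bars above 0) and lower (bars below 0) with all mice and with each HP mouse left out, on TPM (left) and median-of-ratios values (right). On TPM no bar remains without vehicle HP mouse 4, and 18 genes remain called on the median-of-ratios scale.

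The receptor itself was not called. Gene positions are those of GRCm38. Gcgr, the glucagon receptor gene (chr11:120530699-120538986), stood at 169.8, 157, 140 and 121 TPM in vehicle HP mice 1 to 4 and at 140.5, 163, 172 and 144 TPM in G108 HP mice 1 to 4. The groups overlapped, with a log2 fold change of 0.08 ± 0.23 on TPM and -0.04 ± 0.30 on the median-of-ratios scale (SE; limma, adjusted p = 0.97 and 0.977), so its sign turned with the scaling. The list for the receptor's pathway held 18 tested genes (among them adenylyl cyclases, protein kinase A subunits, phosphodiesterases, CREB coactivators and arrestins). Only Rgs16 was called, and it fell. Rgs16 is in none of these classes, acts on inhibitory and Gq-type G proteins, and was listed with earlier results of these data known. No gene of the classes named was called. Pde8a, a phosphodiesterase that breaks down cyclic AMP, had 4.65 to 7.99 TPM against 6.44 to 9.42 TPM (adjusted p = 0.381), and Crtc2, a CREB coactivator, 8.59 to 9.42 against 10.8 to 13.1 TPM (adjusted p = 0.342). The list's median log2 fold change was 0.11 on TPM and 0.01 on the median-of-ratios scale, against 0.09 and -0.0036 over all genes.

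Known targets of CREB and cyclic AMP stood higher throughout. All 16 tested members had a positive log2 fold change on both scales, with a median of 0.73 on TPM and 0.64 on the median-of-ratios scale, and 5 rose on TPM (Sik1, Ppargc1a, Per1, Tat and Kiss1) and 4 of these, all but Per1, on the median-of-ratios scale. This list was written with the earlier results of these data in view and is not independent evidence of direction. Over all genes 0.819% were called higher on TPM and 0.642% on the median-of-ratios scale. Kiss1 (chr1:133321875-133329901), which encodes the kisspeptin precursor, was at 9.21, 5.08, 4.8 and 3.72 TPM in vehicle HP mice and 18, 23.7, 20.8 and 21 TPM in G108 HP mice. Each G108 mouse stood above each vehicle mouse, with a log2 fold change of 1.76 ± 0.24 on TPM and 1.66 ± 0.31 on the median-of-ratios scale (limma adjusted p = 0.0102 and 0.0208). Its annotation overlaps Golt1a and the read-through gene Gm28040 on the same strand, so the reads of these genes can be shared. Sik1 (chr17:31844250-31855804), a salt-inducible kinase that CREB induces and that restrains CREB coactivators, was at 5.15, 3.86, 1.23 and 2.06 TPM and 7.25, 12.3, 10.5 and 11.1 TPM. It rose by a log2 of 1.56 ± 0.31 on TPM and 1.47 ± 0.31 on the median-of-ratios scale (adjusted p = 0.0219 and 0.0371), and the vehicle mice differed among themselves more than the G108 mice relative to their level. Tat (chr8:109990437-109999803), tyrosine aminotransferase and the first enzyme of tyrosine breakdown, was at 466, 532, 324 and 221 TPM in vehicle HP and 972, 1123, 865 and 1296 TPM in G108 HP. Its log2 fold change was 1.52 ± 0.33 on TPM and 1.40 ± 0.31 on the median-of-ratios scale (adjusted p = 0.0357 and 0.0408), the most abundant of the 5. Per1, a repressor of the circadian clock, went from 7.39, 8.77, 7.55 and 5.75 TPM to 11.6, 16, 15.1 and 15.1 TPM and passed on TPM alone (log2 fold change 0.89 ± 0.17 on TPM and 0.78 ± 0.21 on the median-of-ratios scale, adjusted p = 0.02 and 0.0941). Ppargc1a, the coactivator PGC1 alpha that works with CREB on gluconeogenic and mitochondrial genes, was at 0.786, 0.967, 0.887 and 0.987 TPM and 1.77, 2.36, 1.81 and 2.77 TPM (log2 fold change 0.73 ± 0.16 on TPM and 0.66 ± 0.14 on the median-of-ratios scale, adjusted p = 0.0338 and 0.0337). All 5 lost their calls on TPM without vehicle HP mouse 4, where the log2 fold changes were 1.62 for Kiss1, 1.45 for Sik1, 1.28 for Tat, 0.79 for Per1 and 0.75 for Ppargc1a.

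The classical gluconeogenic targets did not pass. Pck1, phosphoenolpyruvate carboxykinase, was at 459.9, 556, 368 and 246 TPM in vehicle HP mice and 954, 996, 774 and 1157 TPM in G108 HP mice, groups that do not overlap, with a log2 fold change of 1.3 ± 0.40 on TPM and 1.17 ± 0.38 on the median-of-ratios scale and limma adjusted p = 0.16 and 0.19. G6pc, the glucose-6-phosphatase that releases free glucose, was at 61.1, 86.2, 50.9 and 49.1 TPM and 87.1, 118, 119.8 and 184 TPM (1.01 ± 0.33 on TPM and 0.89 ± 0.25 on the median-of-ratios scale, adjusted p = 0.191 and 0.123). Both genes stood higher in each G108 mouse than in any vehicle mouse. Igfbp1, an insulin-like growth factor binding protein, had 6.73 to 7.98 TPM against 10.1 to 14.9 TPM (adjusted p = 0.234), Nr4a1, an orphan nuclear receptor, 0.443 to 2.7 against 2.17 to 6.06 TPM (adjusted p = 0.166), and Irs2, an insulin receptor substrate, 1.51 to 1.8 against 2.74 to 3.85 TPM (adjusted p = 0.18). The members nearest to 0 were Junb, an AP-1 subunit (0.16 on TPM), and Creb3l3, a liver transcription factor of the endoplasmic reticulum (0.16).

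**Figure D4:**
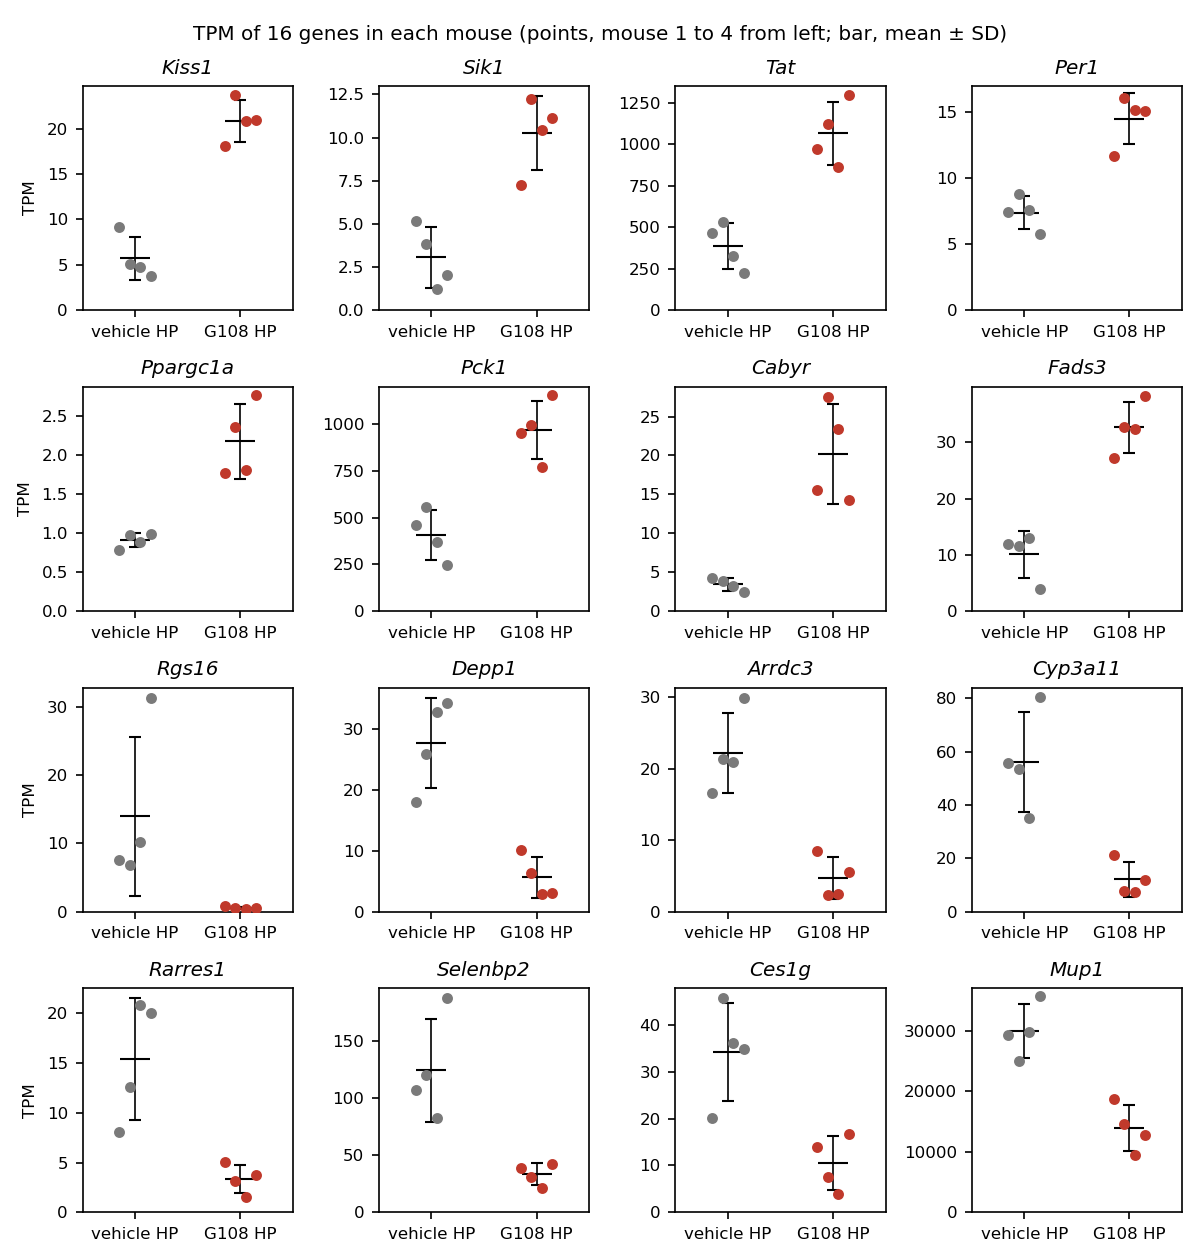
TPM (vertical axes, each from 0) of 16 genes in the 4 vehicle HP mice (grey) and 4 G108 HP mice (red), with mean ± SD. The first 8 panels show genes that stood higher with G108, among them Pck1, which was not called, and the last 8 show genes called lower, where the vehicle HP value of Rgs16 in mouse 4 (31.2 TPM) stands apart from the other 3.

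Among the largest rises, several lay outside the metabolic lists. Cabyr (chr18:12740322-12755260), a calcium-binding protein known from the fibrous sheath of the sperm tail, had the largest rise on both scales. It was at 4.2, 3.9, 3.17 and 2.42 TPM in vehicle HP mice and 15.5, 27.6, 23.4 and 14.2 TPM in G108 HP mice, a log2 fold change of 2.23 ± 0.31 on TPM and 2.14 ± 0.33 on the median-of-ratios scale (adjusted p = 0.0102 and 0.0107). The pseudogene Gm7599, which overlaps Cabyr on the other strand, moved with it (0.425 to 1.02 TPM against 3.79 to 5.77 TPM), and without knowledge of strand in the counting the reads of the pair cannot be told apart. Fads3 (chr19:10041569-10060110), a fatty acid desaturase family member, was at 11.8, 11.5, 13 and 3.82 TPM and 27.2, 32.8, 32.5 and 38.2 TPM (log2 fold change 1.71 ± 0.38 on TPM and 1.60 ± 0.35 on the median-of-ratios scale, adjusted p = 0.0396 and 0.0415), and vehicle HP mouse 4 lay far below the other 3. Without that mouse its log2 fold change on TPM was 1.35. Tuba8, an alpha tubulin, was called on TPM alone (1.59 ± 0.37 on TPM and 1.53 ± 0.41 on the median-of-ratios scale, adjusted p = 0.047 and 0.104), and vehicle HP mouse 1, at 2.86 TPM, stood near the G108 HP mice (3.65 to 4.61 TPM) while the other 3 vehicle mice lay at 0.249 to 0.374 TPM. The remaining genes of this group carry only annotation names (Gm43314, which overlaps Cth, Gm11843, Gm28040, Gm28857 and Gm35696), with log2 fold changes from 1.59 to 1.78 on TPM. Of these, Gm11843 was called on TPM alone (limma, adjusted p = 0.0198 and 0.0646).

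Other genes called higher on both scales included signalling and transport genes. The genes of this paragraph were singled out after their values were seen, except Irs1 and Slc25a51, which came from the fixed rule. Sgk1, a kinase induced by serum and glucocorticoids, was at 2.71, 3.05, 2.11 and 2.02 TPM in vehicle HP and 5.2, 6.14, 6.78 and 9.53 TPM in G108 HP (1.17 ± 0.19 on TPM and 1.08 ± 0.14 on the median-of-ratios scale, adjusted p = 0.0132 and 0.00929). It was among the 18 genes still called on the median-of-ratios scale without vehicle HP mouse 4. Hcar2, the receptor for niacin and beta-hydroxybutyrate, was near absent in vehicle HP mice at 0.359, 0.407, 0.0383 and 0.0584 TPM and reached 1.47, 1.5, 1.67 and 2.33 TPM with G108 (1.18 ± 0.21 on TPM and 1.16 ± 0.18 on the median-of-ratios scale, adjusted p = 0.0132 and 0.0107). Etnk2, an ethanolamine kinase of phospholipid synthesis, was at 59.4, 77.2, 66.9 and 56.9 TPM and 131, 136, 117 and 228 TPM (1.18 ± 0.23 on TPM and 1.05 ± 0.16 on the median-of-ratios scale, adjusted p = 0.0206 and 0.0107). Egln3, an oxygen-sensing prolyl hydroxylase, had 3.63 to 5.99 TPM against 9.24 to 13.5 TPM, and Slc16a5, a monocarboxylate transporter family member, 0.671 to 2.94 against 3.74 to 9.38 TPM. Slc25a51, the carrier that brings NAD into mitochondria, was at 17.9, 17.8, 13.6 and 10 TPM and 30.8, 31.7, 34.9 and 41.9 TPM (1.20 ± 0.21 on TPM and 1.09 ± 0.25 on the median-of-ratios scale, adjusted p = 0.0132 and 0.0493). Irs1, an insulin receptor substrate, was at 1.61, 2.36, 1.59 and 1.35 TPM and 3.03, 3.53, 3.94 and 4.46 TPM (0.80 ± 0.15 on TPM and 0.73 ± 0.14 on the median-of-ratios scale, adjusted p = 0.02 and 0.0287), the 1 called member among 15 tested genes of insulin and IGF signalling. Nprl2, a subunit of the complex that restrains mTORC1 when amino acids are scarce, had 4.84 to 6.38 TPM against 7.07 to 9.76 TPM (adjusted p = 0.0396 and 0.0337). No vehicle mouse reached the lowest G108 mouse for any of these 8 genes on TPM. The groups did not overlap for 130 of the 132 genes called on TPM, so this adds nothing to the calls. On TPM each of them lost its call without vehicle HP mouse 4.

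The largest falls were those of Rgs16 and its neighbours in rank. Rgs16 (chr1:153740349-153745468), which speeds the shut-off of inhibitory and Gq-type G proteins, was at 7.54, 6.79, 10.1 and 31.2 TPM in vehicle HP mice and 0.789, 0.505, 0.322 and 0.603 TPM in G108 HP mice. It fell by a log2 of 3.01 ± 0.49 on TPM and 3.13 ± 0.49 on the median-of-ratios scale (adjusted p = 0.0132 and 0.0107), and vehicle HP mouse 4 stood far above the other 3. Without that mouse the log2 fold change was -2.55 on TPM and -2.66 on the median-of-ratios scale, called on the latter only. Gm28513, an antisense transcript that overlaps Rgs16, moved alongside (5.11 to 30 TPM against 0.168 to 0.637 TPM), and the reads of the pair cannot be told apart without strand. Serpina4-ps1, a pseudogene of a serine protease inhibitor with the largest fall of all, was at 42.1, 81.8, 47.4 and 109 TPM and 5.87, 8.89, 5.35 and 0.883 TPM (log2 fold change -3.63 ± 0.55 on TPM and -3.72 ± 0.54 on the median-of-ratios scale, adjusted p = 0.0132 and 0.00929), and it can share reads with related genes. Depp1, a FOXO-induced regulator of autophagy, was at 18, 25.9, 32.9 and 34.2 TPM and 10.2, 6.32, 2.97 and 3.11 TPM (log2 fold change -2.21 ± 0.39 on TPM and -2.32 ± 0.39 on the median-of-ratios scale, adjusted p = 0.0132 and 0.0163). Arrdc3, an alpha-arrestin, was at 16.7, 21.4, 20.9 and 29.9 TPM and 8.52, 2.27, 2.48 and 5.56 TPM (-2.14 ± 0.37 on TPM and -2.27 ± 0.37 on the median-of-ratios scale, adjusted p = 0.0132 and 0.0134). In both genes the 4 G108 HP mice lay below the lowest vehicle HP mouse, as the rule that named them required. Rarres1, a gene induced by retinoic acid, fell from 8.05, 12.6, 20.9 and 20 TPM to 5.03, 3.11, 1.55 and 3.74 TPM (log2 fold change -1.89 ± 0.33 on TPM and -2.02 ± 0.29 on the median-of-ratios scale, adjusted p = 0.0132 and 0.00929) and kept its call on the median-of-ratios scale in all 17 alternatives. Gbp11, annotated as a polymorphic pseudogene of the guanylate-binding proteins, had 7.13 to 16.9 TPM against 1.26 to 3.03 TPM. The microRNA hairpin genes Mir291b and Mir290b were also called, from few reads. Mir290b had 7, 2, 4 and 10 recovered reads in vehicle HP mice and is listed at 0 in all 4 G108 HP mice, so no fold is given, and Mir291b had 15, 9, 18 and 20 reads against 0, 1, 3 and 0 and overlaps Nlrp12 on the other strand. On TPM each gene of this paragraph lost its call without vehicle HP mouse 4.

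Cyp3a11 (chr5:145854426-145879964), a main drug- and steroid-oxidising cytochrome P450 of mouse liver, was at 55.6, 53.5, 35 and 80.3 TPM in vehicle HP mice and 21.4, 7.69, 7.56 and 11.8 TPM in G108 HP mice. It fell on both scales (log2 fold change -2.18 ± 0.43 on TPM and -2.31 ± 0.42 on the median-of-ratios scale, adjusted p = 0.0214 and 0.0193), with no overlap. Cyp2c54, another P450, was at 75.2, 132, 111 and 125 TPM and 74.8, 54.1, 41.3 and 70.1 TPM and passed on the median-of-ratios scale alone (-0.88 ± 0.23 on TPM and -1.0 ± 0.20 on the median-of-ratios scale, adjusted p = 0.0944 and 0.0282). These were the 2 called members of 24 tested P450 and steroid genes, whose median log2 fold change was -0.22 on TPM and -0.35 on the median-of-ratios scale, with 8 and 6 members positive. Of all genes 0.296% were called lower on TPM and 0.583% on the median-of-ratios scale. Selenbp2, a selenium-binding protein, fell from 107, 120.2, 82.6 and 187 TPM to 38.9, 31.2, 21.3 and 42.3 TPM (-1.84 ± 0.29 on TPM and -1.97 ± 0.28 on the median-of-ratios scale, adjusted p = 0.0132 and 0.00929). The carboxylesterase Ces1g was at 20.2, 45.7, 36 and 34.8 TPM and 13.9, 7.45, 4 and 16.7 TPM (-1.72 ± 0.39 on TPM and -1.85 ± 0.30 on the median-of-ratios scale, adjusted p = 0.0417 and 0.0134), and Ces2c, of the same family, at 24.2, 33.4, 30.3 and 29.5 TPM and 13.9, 17.7, 9.74 and 15.2 TPM (-1.02 ± 0.21 on TPM and -1.14 ± 0.21 on the median-of-ratios scale, adjusted p = 0.028 and 0.0185). Carboxylesterases share sequence, so reads can be divided among them. Slc22a7, an organic anion transporter, had 5.88 to 13.2 TPM against 1.97 to 6.11 TPM, overlapping on TPM by 1 mouse, Serpina12, the secreted inhibitor vaspin, 6.3 to 10.3 against 1.42 to 3.53 TPM, and Osgin1, an oxidative stress response gene, 45 to 83.7 against 18.7 to 34.3 TPM, all called on both scales. Selenbp2, Ces1g, Ces2c, Slc22a7, Serpina12 and Osgin1 were singled out after their values were seen. Of 25 tested conjugation genes none was called. Sult1a1, a phenol sulfotransferase, had 116 to 171 TPM against 221 to 332 TPM (adjusted p = 0.0508 and 0.0623) and Gstp1, a glutathione transferase, 578 to 943 against 1232 to 1757 TPM (adjusted p = 0.138 and 0.253). Without vehicle HP mouse 4 the calls of this paragraph on TPM were lost, and on the median-of-ratios scale Cyp3a11 had an adjusted p of 0.0886 and Selenbp2 one of 0.0334.

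Of 43 tested Mup genes 12 were called lower on TPM and 8 on the median-of-ratios scale, where 0.296% and 0.583% of all genes were, with median log2 fold changes of -0.81 and -0.93. Mup1 was at 29322, 25034, 29736 and 35695 TPM in vehicle HP mice and 18712, 14597, 9559 and 12717 TPM in G108 HP mice (-1.14 ± 0.20 on TPM and -1.26 ± 0.26 on the median-of-ratios scale, adjusted p = 0.0132 and 0.0337). Mup17 was at 7293, 6243, 8234 and 8822 TPM and 4550, 4045, 2827 and 3465 TPM (-1.05 ± 0.17 on TPM and -1.17 ± 0.24 on the median-of-ratios scale, adjusted p = 0.0132 and 0.0327), Mup13 had 13179 to 15646 TPM against 6828 to 9099 TPM, and Mup11, called on TPM alone, 21591 to 26600 against 10871 to 16170 TPM. Of the G108 HP mice, mouse 3 had the lowest TPM of these 4 genes, and mouse 4 the lowest median-of-ratios value. The 3 Mup genes with a positive log2 fold change on both scales were Mup4, Mup20 and Mup-ps19, none of them called. Mup4, named after its values were seen, was at 0.327, 2.13, 0.201 and 7.05 TPM in vehicle HP mice and 10.5, 3.64, 56.3 and 4.49 TPM in G108 HP mice (2.18 ± 0.70 on TPM and 2.14 ± 0.79 on the median-of-ratios scale, adjusted p = 0.181 and 0.269), overlapping and highest in G108 HP mouse 3. Many Mup copies are nearly identical, so the split of reads among those copies is uncertain while the sum of the Mup genes is less so. All calls among the 35 tested male-biased liver genes were the called Mup genes. The other male-biased genes included Cyp4a12a at 25.8 to 41.8 TPM against 11.5 to 25.6 TPM (adjusted p = 0.284 and 0.0907). Among 4 tested female-biased genes none was called, and Cyp17a1, the steroid 17-hydroxylase, at 6.22 to 16.6 TPM against 26.9 to 61.4 TPM (adjusted p = 0.153), and Cyp2b9, at 2.55 to 8.92 TPM against 0.406 to 2.1 TPM (adjusted p = 0.226), pointed in opposite directions. The regulators of this programme, 12 tested genes of growth hormone signalling, gave no call in limma (2 at an unadjusted p under 0.05 on TPM and 4 on the median-of-ratios scale). Cish, a STAT5-induced inhibitor of cytokine signalling, was at 2.9, 2.97, 3.42 and 4.75 TPM and 1.11, 0.677, 2.12 and 0.623 TPM (adjusted p = 0.235 and 0.232), and Socs2, of the same family, had 0.761 to 2.51 TPM against 0.34 to 0.664 TPM (adjusted p = 0.315 and 0.27), the 2 groups without overlap for both genes on TPM. Without vehicle HP mouse 4 the Mup calls on TPM were lost, with a log2 fold change of -1.05 for Mup1.

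Slc38a2, a sodium-coupled neutral amino acid transporter, was at 9.63, 12.1, 8.63 and 9.78 TPM in vehicle HP mice and 15, 21.1, 15.8 and 18 TPM in G108 HP mice (0.74 ± 0.17 on TPM and 0.63 ± 0.17 on the median-of-ratios scale, adjusted p = 0.0487 and 0.0971). Slc25a22, a mitochondrial glutamate carrier, was at 37.6, 34.4, 30 and 23.4 TPM and 48.4, 53.7, 56.5 and 76.3 TPM (0.88 ± 0.20 on TPM and 0.76 ± 0.22 on the median-of-ratios scale, adjusted p = 0.0476 and 0.125). Both passed on TPM and neither on the median-of-ratios scale, and they were the only called members of 15 tested amino acid transporters, 12 of which were positive on TPM and 11 on the median-of-ratios scale. Of all genes 0.819% were called higher on TPM and 0.642% on the median-of-ratios scale. Sds, serine dehydratase, which turns serine into pyruvate, was at 332, 233, 225 and 135 TPM and 409.5, 502, 489.6 and 559 TPM and also passed on TPM alone (1.14 ± 0.25 on TPM and 1.02 ± 0.29 on the median-of-ratios scale, adjusted p = 0.0384 and 0.128). The antisense gene Gm15690, which overlaps Sds, was called on both scales, and the reads of the pair cannot be told apart without strand. Of 13 tested serine, threonine and glycine breakdown genes Sds was the only call, and of 9 tested phenylalanine and tyrosine breakdown genes Tat was. All 3 calls on TPM named here for Slc38a2, Slc25a22 and Sds were lost without vehicle HP mouse 4, with highest adjusted p over the alternatives of 0.175, 0.21 and 0.138.

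The urea cycle, which disposes of amino acid nitrogen, gave no call in 8 tested genes (3 at an unadjusted p under 0.05 on TPM and 4 on the median-of-ratios scale in limma). All 8 were positive on TPM and 6 on the median-of-ratios scale, with medians of 0.45 and 0.32. Ass1, argininosuccinate synthase, was at 1064, 1148, 1092 and 831 TPM in vehicle HP mice and 2267, 1551, 1315 and 3051 TPM in G108 HP mice (0.92 ± 0.31 on TPM and 0.79 ± 0.27 on the median-of-ratios scale, adjusted p = 0.219 and 0.214). Asl, argininosuccinate lyase, was at 129, 150.5, 121 and 77.6 TPM and 196, 174, 189.7 and 295 TPM (0.84 ± 0.21 on TPM and 0.72 ± 0.18 on the median-of-ratios scale, adjusted p = 0.076 and 0.0881). Arg1, arginase, was at 347, 418, 361 and 312 TPM and 586, 526, 422 and 886 TPM (0.70 ± 0.25 on TPM and 0.58 ± 0.17 on the median-of-ratios scale, adjusted p = 0.233 and 0.142). On TPM these 3 of the 8 genes did not overlap between the groups, and on the median-of-ratios scale 4 of the 8 did not. Over all genes 8.88% and 8.15% did not overlap. Cps1, carbamoyl phosphate synthetase, spread from 166 to 404 TPM in vehicle HP and from 221 to 664 TPM in G108 HP, with G108 HP mouse 4 the highest. Otc, ornithine transcarbamylase, spread from 58.4 to 70.5 and from 51.7 to 91.7 TPM, and both genes overlapped on TPM.

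The remaining amino acid lists gave 0 calls in limma on either scale. Their medians on TPM and on the median-of-ratios scale were 0.30 and 0.18 for 11 transaminases and glutamate genes (4 and 3 at an unadjusted p under 0.05), 0.37 and 0.25 for 7 histidine and proline genes (2 and 0), 0.26 and 0.13 for 13 tryptophan genes (2 and 1). They were 0.20 and 0.08 for 11 methionine and transsulfuration genes (2 and 3), 0.16 and 0.07 for 9 ATF4 and serine synthesis genes (3 and 2), and 0.02 and -0.09 for 19 branched-chain breakdown genes (0 and 0). Gls2, liver glutaminase, was at 107, 111, 95.6 and 80.3 TPM and 182, 154, 147 and 266 TPM (0.89 ± 0.22 on TPM and 0.76 ± 0.18 on the median-of-ratios scale, adjusted p = 0.0725 and 0.0589), without overlap. Got1, the cytosolic aspartate aminotransferase, was at 85.9, 99.4, 85.2 and 60.6 TPM and 155, 138, 121 and 284 TPM (adjusted p = 0.192 and 0.173), with G108 HP mouse 4 well above the other 3. Cth, which makes cysteine from cystathionine, had 76.8 to 102 TPM against 132 to 281 TPM, Cbs, the step before it, 38.8 to 49.8 against 50 to 93.2 TPM, Ftcd, of histidine breakdown, 129.8 to 167 against 193 to 244 TPM, and Uroc1, urocanase, 80.1 to 117 against 119 to 179.9 TPM. The tryptophan genes Acmsd and Afmid had 5.05 to 11.2 against 11.7 to 22.3 TPM and 26.7 to 33.8 against 36.8 to 51.5 TPM, the branched-chain genes Mcee and Bckdhb 25.9 to 34.6 against 33.3 to 37.2 TPM and 35.4 to 46.8 against 43 to 52.6 TPM. The ATF4 targets Trib3, a pseudokinase, and Chac1, which breaks down glutathione, pointed downwards, at 1.34 to 4.25 against 0.934 to 1.52 TPM and 0.405 to 3.12 against 0.361 to 0.523 TPM (adjusted p = 0.201 and 0.236). Of the 9 tested genes of that list 7 were positive on each scale.

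Among the lists of glucose metabolism, which include Pck1 and G6pc, no gene was called. The 12 tested gluconeogenic genes had medians of 0.21 on TPM and 0.08 on the median-of-ratios scale, 13 glycogen genes 0.08 and -0.05, and 17 glycolysis and glucose uptake genes 0.22 and 0.10, with 0 called in limma and 3, 0 and 3 at an unadjusted p under 0.05 on TPM and 3, 3 and 3 on the median-of-ratios scale. Slc2a1, the basal glucose transporter, was at 1.93, 1.99, 1.65 and 1.58 TPM and 2.71, 2.99, 2.57 and 3.45 TPM (adjusted p = 0.126 and 0.138), and Pfkfb2, which makes the regulator fructose 2,6-bisphosphate, at 1.47, 3.01, 2.17 and 1.7 TPM and 3.08, 3.26, 3.32 and 5.86 TPM (adjusted p = 0.131 and 0.0503). Both were without overlap, and Pfkfb2 was highest in G108 HP mouse 4. The glycogen genes Phkg2 and Gsk3b, a phosphorylase kinase subunit and a glycogen synthase kinase, had 5.65 to 6.94 against 6.79 to 8.25 TPM and 1.41 to 2.32 against 2.14 to 3.27 TPM, both overlapping.

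In 8 lists of lipid metabolism no member was called on either scale in limma. Across de novo lipogenesis (15 genes), cholesterol metabolism (21), fatty acid oxidation (15), ketone body synthesis (6), PPAR alpha targets (19), lipid droplets and triglyceride synthesis (22), apolipoproteins and VLDL assembly (17) and bile acid synthesis and transport (18), between 0 and 5 members a list on TPM and 0 and 9 on the median-of-ratios scale had an unadjusted p under 0.05. The medians were 0.11, -0.04, -0.0052, -0.10, -0.32, -0.12, -0.08 and -0.10 on TPM in that order, and -0.01, -0.16, -0.13, -0.23, -0.42, -0.22, -0.20 and -0.23 on the median-of-ratios scale. PPAR alpha targets lay lowest, with 16 of 19 members negative on both scales. They also had the most members at an unadjusted p under 0.05, 5 of 19 on TPM and 9 of 19 on the median-of-ratios scale. Over all 11839 genes 1410 and 1337 reached that level. Angptl4, an inhibitor of lipoprotein lipase, was at 9.29, 13.6, 16.1 and 17.9 TPM in vehicle HP and 10.2, 9.14, 4.41 and 10.2 TPM in G108 HP (-0.70 ± 0.26 on TPM and -0.82 ± 0.21 on the median-of-ratios scale, adjusted p = 0.26 and 0.0901), and Vnn1, a pantetheinase, had 5.24 to 14.3 against 2.07 to 5.93 TPM (adjusted p = 0.291 and 0.157). Cyp4a10, a fatty acid hydroxylase, had 41.5 to 103 against 18.4 to 43.3 TPM (adjusted p = 0.476), groups that overlapped slightly. Of the lipogenic genes, Acly, ATP citrate lyase, had 12.4 to 36.1 TPM against 23.4 to 64.7 TPM, the highest from G108 HP mouse 4 alone, and Elovl6, a fatty acid elongase, 2.66 to 13.4 against 10.4 to 14.1 TPM. Hmgcs1, of cholesterol synthesis, had 20 to 50.4 against 17 to 37.7 TPM. Plin4, a lipid droplet coat protein, and Dgat1, of triglyceride synthesis, had 0.781 to 1.15 against 1.43 to 2.17 TPM and 4.9 to 7.67 against 8.3 to 9.85 TPM, without overlap on TPM (adjusted p = 0.215 and 0.292). Tm6sf2 and Apoc2, of VLDL, had 7.69 to 16 against 15.3 to 24.9 TPM and 129 to 259 against 212 to 277 TPM, and the sterol exporters Abcg5 and Abcg8 30.6 to 62.7 against 47.3 to 94.6 TPM and 26 to 32.5 against 30.4 to 44.4 TPM. Of fatty acid oxidation, the electron carriers Etfa and Etfb had 84.9 to 121 against 86.5 to 179 TPM and 169 to 249 against 241 to 294 TPM, and of ketone bodies Bdh1 had 33.6 to 51.9 against 22.1 to 56.9 TPM and the transporter Slc16a6 0.847 to 1.21 against 1.02 to 1.61 TPM.

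The mitochondrial genome gave 0 calls among its 37 genes in limma, with 22 at an unadjusted p under 0.05 on TPM and 3 on the median-of-ratios scale. On TPM 36 of the 37 were positive and on the median-of-ratios scale 34, with medians of 0.65 and 0.52. The groups did not overlap for 16 of the 37 on TPM and for 0 on the median-of-ratios scale (8.88% and 8.15% of all genes). mt-Nd2, a complex I subunit, was at 4179.8, 4077, 4126 and 3784 TPM in vehicle HP mice and 5572, 7962, 11137 and 5269 TPM in G108 HP mice (0.82 ± 0.20 on TPM and 0.70 ± 0.30 on the median-of-ratios scale, adjusted p = 0.0694 and 0.375). mt-Co1, the catalytic subunit of cytochrome oxidase, was at 18998, 16314, 17458 and 14351 TPM and 20000, 24383, 34162 and 19827 TPM (adjusted p = 0.241 and 0.71), and mt-Tm, the methionine tRNA, at 497, 437, 466 and 455 TPM and 677, 878, 1077 and 599.6 TPM (adjusted p = 0.0558 and 0.375). In all 3 genes, as in the mitochondrial share, G108 HP mouse 3 was the highest and mouse 2 next. The ribosomal RNAs mt-Rnr1 (494 to 841 against 587 to 1338 TPM) and mt-Rnr2 (345 to 565 against 410.4 to 966 TPM) overlapped. The summed mitochondrial share differed by 5.40 percentage points without G108 HP mouse 3 and by 8.94 with it.

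Of 80 tested nuclear respiratory chain genes 0 were called in limma, 34 on TPM and 5 on the median-of-ratios scale had an unadjusted p under 0.05, and 77 and 73 were positive, with medians of 0.32 and 0.20. Atp5g1, an ATP synthase c subunit, was at 33.9, 31.8, 27.4 and 23.9 TPM and 44.3, 43.3, 36.7 and 44.2 TPM (adjusted p = 0.123 and 0.25), and Cox6b1, of cytochrome oxidase, at 199.9, 152, 144 and 123 TPM and 222, 221, 189 and 220.4 TPM (adjusted p = 0.172 and 0.544). The 78 mitochondrial ribosomal proteins had medians of 0.14 and 0.03 (Mrps18c 8.04 to 11.7 against 12 to 19.7 TPM, Mrps21 27.4 to 43.8 against 44.7 to 50.9 TPM) with 0 called and 9 and 2 at an unadjusted p under 0.05. The 19 tricarboxylic acid cycle genes had medians of 0.11 and -0.01, 0 called and 2 and 3 at that level. Among them Fh1, fumarase, was at 49.2, 60.4, 48.5 and 35.1 TPM and 109, 91.5, 87 and 150 TPM (1.15 ± 0.31 on TPM and 1.03 ± 0.27 on the median-of-ratios scale, adjusted p = 0.0915 and 0.0881), without overlap, and Idh3a, an isocitrate dehydrogenase subunit, had 3.64 to 5.86 against 5.94 to 9.04 TPM. Of 20 genes of PGC1 alpha and mitochondrial DNA expression Ppargc1a was the 1 call. Among 34 tested mitochondrial carriers, Slc25a51 was called on both scales and Slc25a22 on TPM. Without vehicle HP mouse 4 none of these calls passed on TPM.

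**Figure D5:**
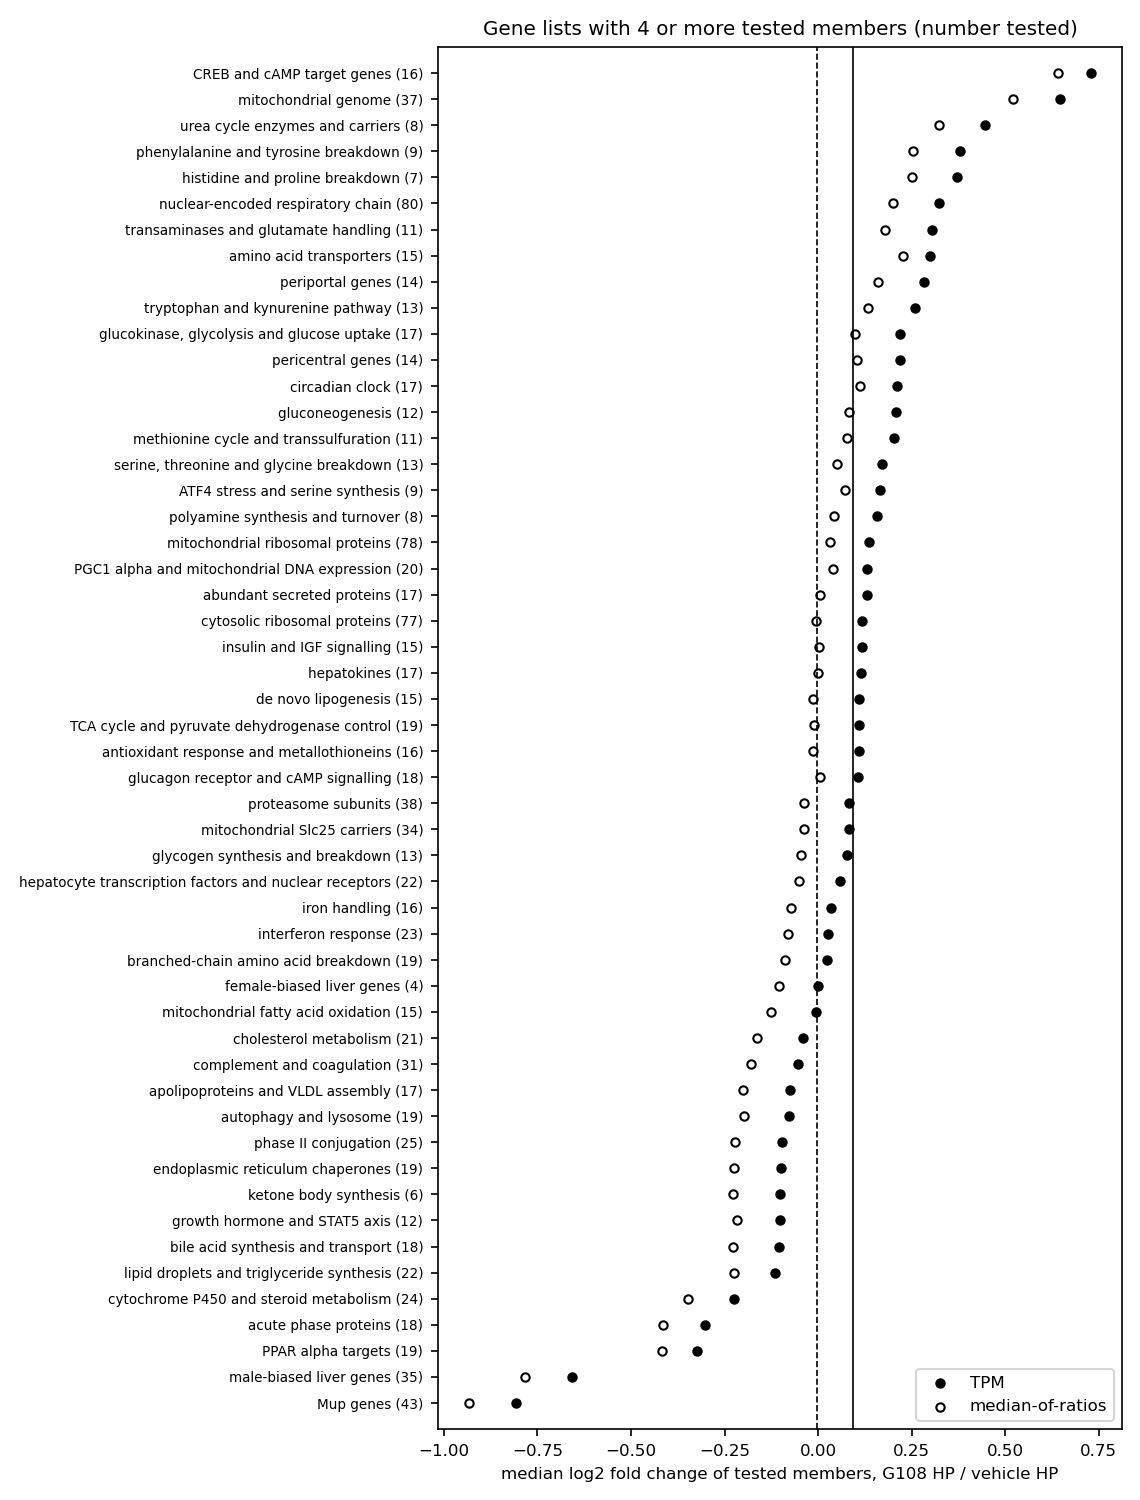
Median log2 fold change of G108 HP over vehicle HP (horizontal axis) for each gene list with 4 or more tested members (number in brackets), on TPM (filled) and median-of-ratios values (open), with the median of all genes as a solid (TPM) and a dashed (median-of-ratios) line. CREB targets and the mitochondrial genome lie highest (0.73 and 0.65 on TPM) and the Mup genes lowest (-0.81).

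Other regulators gave single calls. Klf15, a glucagon- and glucocorticoid-responsive factor of amino acid breakdown, was at 37.7, 52.3, 46.6 and 44 TPM in vehicle HP and 63.9, 67.6, 55.6 and 90.7 TPM in G108 HP and passed on the median-of-ratios scale alone (0.60 ± 0.18 on TPM and 0.47 ± 0.10 on the median-of-ratios scale, adjusted p = 0.149 and 0.0415), as 1 of 22 tested liver transcription factors. Znrf3, a ubiquitin ligase that dampens Wnt signalling and is used as a pericentral gene, was at 0.672, 1.21, 0.942 and 0.943 TPM and 1.77, 1.63, 1.63 and 1.99 TPM (0.51 ± 0.12 on TPM and 0.45 ± 0.08 on the median-of-ratios scale, adjusted p = 0.0656 and 0.0163), the 1 call of 14 pericentral genes, and Sds was the 1 call of 14 periportal genes, on TPM. Iigp1, an interferon-induced GTPase, was at 16.4, 21.1, 18.4 and 24.1 TPM and 12.7, 11.7, 8.17 and 13.2 TPM and fell on the median-of-ratios scale alone (-0.76 ± 0.21 on TPM and -0.88 ± 0.15 on the median-of-ratios scale, adjusted p = 0.12 and 0.0163), the 1 call of 23 interferon response genes. Per1 was the 1 call of 17 clock genes, on TPM, and 15 of the 17 were positive on TPM and 12 on the median-of-ratios scale. Without vehicle HP mouse 4 the median-of-ratios adjusted p in limma was 0.0551 for Znrf3, 0.0675 for Iigp1 and 0.124 for Klf15.

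In the other lists no member was called in limma on either scale. Acute phase proteins (18 tested) had medians of -0.30 on TPM and -0.41 on the median-of-ratios scale, with 2 and 5 at an unadjusted p under 0.05. Orm3, an orosomucoid, had 2.81 to 3.78 against 0.797 to 1.56 TPM (adjusted p = 0.168 and 0.227) and Saa4, a serum amyloid, 56.9 to 80.7 against 35.3 to 59.8 TPM. Complement and coagulation (31 tested, 0 and 5 at that level) had medians of -0.06 and -0.18, with C6 at 29.2 to 53.1 against 19.3 to 32.2 TPM and Masp2 at 58 to 66.2 against 70.7 to 79.7 TPM. Hepatokines (17, 3 and 4) had 0.12 and -0.0016, with Hamp2, of the hepcidin family, at 278, 167, 238 and 106 TPM against 371, 398, 545 and 387 TPM (1.18 ± 0.32 on TPM and 1.05 ± 0.39 on the median-of-ratios scale, adjusted p = 0.105 and 0.269) and Fst, follistatin, at 0.418 to 1.24 against 1.37 to 2.66 TPM. Iron genes (16, 3 and 4) had 0.04 and -0.07, with Tfrc, the transferrin receptor, at 1.32 to 2.63 against 2.47 to 5.21 TPM. Abundant secreted proteins (17, 0 and 0) had 0.13 and 0.01, with Ttr, transthyretin, at 2918 to 3562 against 3225 to 4236 TPM and Ambp at 866 to 1079.5 against 856 to 1301 TPM. Endoplasmic reticulum chaperones (19, 0 and 4) had -0.10 and -0.22, with Xbp1, a factor of the unfolded protein response, at 33.6 to 61.2 against 23.7 to 42.9 TPM and Herpud1 at 80.8 to 109 against 50.1 to 101 TPM. Autophagy and lysosome genes (19, 0 and 3) had -0.08 and -0.20, with Wipi1 and Tfeb at 1.35 to 2.53 against 1.32 to 1.71 TPM and 1.3 to 1.86 against 1.53 to 2.45 TPM. Antioxidant genes (16, 0 and 2) had 0.11 and -0.01, with Gclc at 37.9 to 42.5 against 28.6 to 38.4 TPM and Sod1 at 109 to 162 against 147 to 171 TPM. Polyamine genes (8, 1 and 1) had 0.16 and 0.04, with Paox at 7.02 to 9.06 against 8.34 to 13.5 TPM and Amd1 at 5.99 to 9.34 against 6.72 to 13 TPM. Cytosolic ribosomal proteins (77, 0 and 0) had 0.12 and -0.0055, proteasome subunits (38, 1 and 0) 0.08 and -0.04, and only 3 of 16 cell cycle genes reached a mean of 1 TPM (0 and 0), with Ccnd1 at 0.79 to 6.04 against 1.34 to 1.59 TPM and Gadd45a at 2.73 to 4.73 against 2.48 to 4.23 TPM. Medians within about 0.1 of those of all genes, on each scale, were those of hepatokines, iron, antioxidant, secreted, polyamine, ribosomal and proteasome genes.

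Whether the effect of G108 on HP differed from that on SP was tested as an interaction in the same model. No gene was called on either scale in limma, with 5685 genes at an unadjusted p under 0.05 on TPM and 854 on the median-of-ratios scale and smallest adjusted p of 0.0799 and 0.575. The median-of-ratios factors ranged from 0.681 to 0.964 in vehicle SP and from 1.17 to 1.54 in G108 SP. In vehicle HP and G108 HP they were 0.833 to 1.07 and 0.839 to 1.24. The interaction on TPM holds this difference in scaling, so its counts are no count of genes that depend on diet. Without G108 HP mouse 4 the TPM interaction called 5202 genes, with array quality weights 7267, and with no filter 1, while the median-of-ratios scale gave 0 in the same fits except 1 with no filter. Among the 90 genes called on both scales, 25 on TPM and 16 on the median-of-ratios scale had an unadjusted interaction p under 0.05. Over all 11839 genes these counts were 5685 and 854, a larger share than among the 90 on TPM and a smaller one on the median-of-ratios scale. For Tat the log2 fold change was 1.52 on HP and 2.53 on SP on TPM, and 1.40 and 1.75 on the median-of-ratios scale, a difference of -1.0 and -0.35 (adjusted p = 0.102 and 0.705). For Got1 the effect was 1.01 on HP and 3.01 on SP on TPM (adjusted p of the difference = 0.0799). On the median-of-ratios scale the Got1 effect was 0.88 on HP and 2.24 on SP (adjusted p of the difference = 0.575). Cyp3a11 had -2.18 on HP and -0.43 on SP on TPM (adjusted p of the difference = 0.0799, and 0.575 on the median-of-ratios scale), and Gbp11 -1.86 and -0.34 (0.0799 and 0.575). Mup1 had -1.14 on HP and -1.94 on SP on TPM (adjusted p of the difference = 0.0799). On the median-of-ratios scale the smallest adjusted p of the difference in limma among the 90 genes, which include Mup1, was 0.575. The value of 0.0799 for Got1, Cyp3a11, Gbp11 and Mup1 is the smallest adjusted p of all genes on TPM and does not rank them. Kiss1 and Rgs16 had differences of -0.15 and 0.09 on TPM (adjusted p = 0.719 and 0.924). On the median-of-ratios scale these were 0.45 and 0.52 (adjusted p = 0.642 and 0.725), so the sign for Kiss1 turned with the scaling. None of these differences passed, which does not show that the effects were the same on the 2 diets.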

How the data were processed

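Whole-liver RNA was sequenced in 16 mice, 4 for each pairing of agent (vehicle or G108) with diet (SP or HP). The deposited table holds TPM values that the authors made with FastQC 0.11.8, HISAT2 2.0.5 on GRCm38 and featureCounts (the submitters' processing notes also name DESeq2 1.36.0); the strand setting of the counting is not given in the sources used here. Genes with a mean of at least 1 TPM were tested in R 4.3.3 with limma 3.58.1 (trend) on log2(TPM + 1), with 1 mean for each of the 4 groups and Benjamini-Hochberg adjustment, on TPM and after division by median-of-ratios factors from 11591 genes. A fold change on this scale understates that of low genes. Read depth was recovered from the steps between low TPM values, of which 98.7% were whole reads within 0.02. TPM test results depend on the total, so voom on those reads was added after seeing the data. The script was tested on simulated data.

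The genes named were the 10 largest rises and falls called without overlap on each scale, up to 4 called members of each list, or 2 members with the smallest p where none was called, and Gcgr. Further genes, such as Pde8a, Crtc2, Igfbp1, Nr4a1, Irs2, Junb, Creb3l3, Arg1, Cps1, Otc, Vnn1, Cyp4a10, Gm15690, mt-Co1, mt-Rnr1 and mt-Rnr2, were named after their values were seen. The comparison and the lists were chosen with earlier results of these data known. Nothing in the labels names litters or cages, so p-values measure the spread between these mice. Results for 2 further genes are not reported here.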

Additional observations from a re-analysis of the deposited data

Results flagged for a closer look

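In 16 of 230 groups of 4 HP mice for the genes named, 1 mouse lay apart from the other 3 by Dixon's criterion, where chance gives about 1 in 20 (11.5). G108 HP mouse 4 was that mouse for 6 genes. It was highest for Pfkfb2 (5.86 TPM), Acly (64.7 TPM), Tm6sf2 (24.9 TPM), Tfrc (5.21 TPM), Mrps21 (50.9 TPM) and Rps28 (23.2 TPM). Vehicle HP mouse 4 was that mouse for 4 genes, with Rgs16 (31.2 TPM) and Socs2 (2.51 TPM) high and Fads3 (3.82 TPM) and Sult1a1 (116 TPM) low. G108 HP mouse 3 was that mouse for 3 genes, with Hamp2 (545 TPM) high and Atp5g1 (36.7 TPM) and Cox6b1 (189 TPM) low. Vehicle HP mouse 2 was high for Paox (9.06 TPM) and Amd1 (9.34 TPM), and vehicle HP mouse 1 was high for Tuba8 (2.86 TPM).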

How the results depend on the processing

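The TPM counts of 97 genes higher and 35 lower became 60 higher with the HP libraries only, 57 higher at a mean TPM of at least 5, 29 higher and 8 lower with no filter on low values, 1792 higher and 334 lower with array quality weights, 69 lower on the median-of-ratios scale, and 54 higher and 80 lower when rescaled without mitochondrial and Mup genes, where the median log2 fold change of the tested genes was -0.073. The median-of-ratios counts of 76 higher and 69 lower became 33 and 19 with the HP libraries only, 34 and 43 at a mean TPM of at least 5, 24 and 19 with no filter, and 405 and 390 with array quality weights. With 1 HP mouse left out, the counts ranged from 0 to 88 higher and from 0 to 33 lower on TPM, and from 8 to 72 higher and 9 to 64 lower on the median-of-ratios scale. The causes were not tested.

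With the mouse number as a replicate block, 51 genes were higher and 20 lower on TPM and 20 higher and 15 lower on the median-of-ratios scale. Deviations of same-numbered vehicle HP and G108 HP mice correlated at -0.42, -0.28, -0.20 and 0.26, so the numbers were not taken to pair the mice.

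With 1 HP mouse left out, the mitochondrial share differed by 5.40 to 10.8 percentage points and the Mup share by -17.2 to -13.4, each with an exact permutation p of 0.0571, the smallest that 4 against 3 allows. Signs turned for 4 genes that were not called. Sod1 had a log2 fold change of -0.0055 when rescaled without mitochondrial and Mup genes. Ccnd1 had 0.10 and Gadd45a 0.051 with array quality weights, and Ccnd1 ranged from -0.62 to 0.039 with a mouse left out. Gcgr had -0.0422 with voom on recovered reads, -0.045 on the median-of-ratios scale, -0.12 when rescaled without mitochondrial and Mup genes, and -0.0084 to 0.15 with a mouse left out. No named called gene changed sign under the alternatives on TPM or with voom on recovered reads. All named genes were compared in sign in these fits only. Pck1 was called in 1 of 17 alternatives on each scale (array quality weights on TPM), with an adjusted p in limma from 0.000561 to 0.538 on TPM and from 0.00837 to 0.536 on the median-of-ratios scale.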
